A study of Mus musculus with 23 samples.

Results

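Sex differences in DNA methylation were described in mouse liver whose hepatocytes lacked STAT5a and STAT5b, from 6 knockout males and 6 knockout females (KO). The assay was reduced representation bisulfite sequencing (RRBS), which cuts DNA at CCGG sites with MspI and reads methylated cytosines by their resistance to bisulfite. The authors' deposited table gives, for windows of 100 bp, the difference in percent methylation between 2 groups, here KO males minus KO females, so that a positive value means higher methylation in KO males. Members are all windows with a value other than 0 in that column, 699 of the 3885 windows of the table (18%). A window entered the table when at least 1 of 4 comparisons listed it, and a 0 means not listed, not unchanged.

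The KO mice carried floxed Stat5a-Stat5b alleles and an albumin promoter-driven Cre transgene, which deletes the locus in hepatocytes, so that other cells of the liver keep STAT5. The other groups of the table are 6 males and 5 females with the floxed locus as controls. All mice were 8 to 12 weeks old and of a mixed C57BL/6 x 129J background, with the Cre line from FVB/N, per the labels. Each library came from a single liver. Among the 6 KO males, 2 titles carry the code G130 and 4 the code G131, and among the 6 KO females 1 carries G131 and 5 carry G132. Among the control males 4 titles carry G128 and 2 carry G129, and among the control females 2 carry G129 and 3 carry G130. What these codes mean is not given in the sources used, and code and sex largely cannot be told apart. KO males share no code with control males, and KO females share none with control females. In each comparison of KO with control mice, code and genotype therefore cannot be told apart. The table holds group differences only, so the deletion, the tissue and the spread between animals were not checked here, and the read depth behind a difference is unknown.

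STAT5a and STAT5b are activated by the growth hormone receptor through JAK2 and bind DNA as dimers. In rodents growth hormone reaches the liver in pulses in males and more continuously in females, and STAT5 carries that difference to many sex-biased liver genes, among them genes of steroid and drug metabolism. DNA methylation at CpG sites is often low at active promoters and enhancers, and sex differences at liver regulatory sites are known in mice. In a liver homogenate, a different mix of cell types and a different level within a single cell type cannot be told apart.

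Sex differences were listed in both directions in nearly equal number in KO liver. Methylation was higher in KO males at 352 windows (9.06% of the table) and lower in KO males at 347 windows (8.93%). The differences were mostly modest. Among windows higher in KO males the median was 19.02 points (interquartile range 16.9 to 23.3), and among windows lower in KO males it was -19.9 points (-23.4 to -17.2). Both sets crowd against the listing threshold, which the authors set at an absolute difference above 15 points with a q-value under 0.05. Of the 699 windows, 374 (53.5%) were under 20 points, 130 (18.6%) were at least 25 points, 52 (7.44%) at least 30 points and 7 (1.00%) at least 40 points. In the control sex difference, 24.1% of 1493 listed windows were at least 25 points and 3.82% at least 40 points. Because the rule chose the windows by this contrast, these sizes are a description and were given no test.

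**Figure D1:**
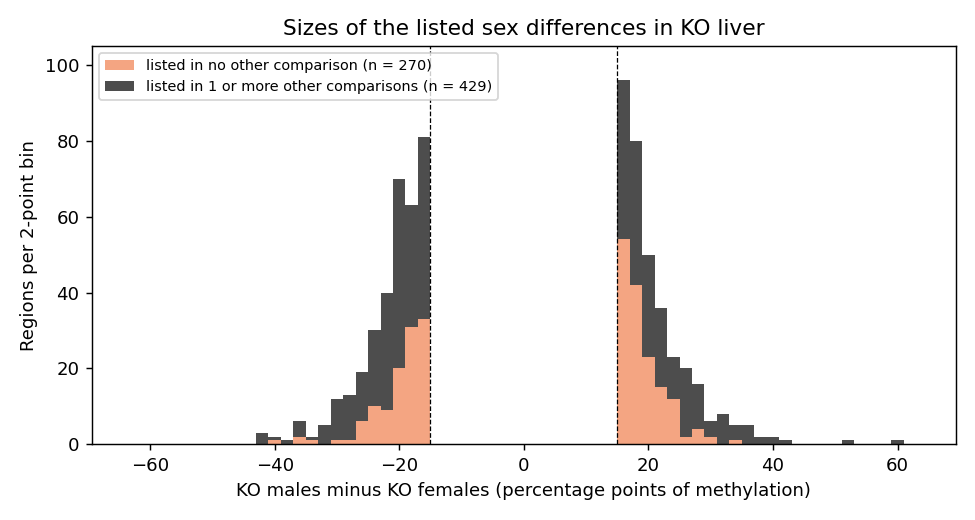
Number of listed windows per 2-point bin of the difference in methylation, KO males minus KO females, stacked by whether the window was listed in no other comparison (270, light) or in at least 1 (429, dark); dashed lines mark the listing threshold of 15 points. Both sides fall off from the threshold and no value lies between the lines.

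The values nearest the threshold were 15.02 points on chromosome 7, 51967201 to 51967301, and -15.03 points on chromosome 10, 83464801 to 83464901, in the authors' deposited table. Windows below the threshold are listed as 0, so no value just outside it can be given.

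The largest sex difference of KO liver lay in the distal part of chromosome 18. At chromosome 18, 84332401 to 84332501, the authors' deposited table puts KO males 60.7 points above KO females and 27.7 points above control males, with -49.4 points for KO females against control females. The control sexes were not listed as different there, although the other columns together imply -16.4 points between them, by the sum given below. The second largest, at chromosome 6, 141549001 to 141549101, was 52.6 points in KO liver and -31.3 points in control liver in the authors' deposited table, beside 30.5 points between KO and control males and -55.8 points for KO females against control females. The sex with higher methylation thus differed between KO and control liver at that window.

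The third differed in kind. At chromosome 14, 35507201 to 35507301, KO males were 41.3 points above KO females in the authors' deposited table and control males 16.9 points above control females, while both KO sexes were below their own controls, with -15.3 points in males and -49.6 points in females. The fourth and sixth, at chromosome 18, 77252701 to 77252801 (40.0 points) and 70680401 to 70680501 (37.7 points) in the authors' deposited table, had control sex differences of -37.8 and -37.3 points. These windows resembled the chromosome 6 window in having opposite sex differences in KO and control liver. The other 5 of the 10 were listed against control males but neither between the control sexes nor in females. By the authors' deposited table they lay at chromosome 18, 74561901 to 74562001 (39.6 points) and 83144201 to 83144301 (35.6 points), chromosome 1, 179899601 to 179899701 (37.0 points) and 20477001 to 20477101 (35.2 points), and chromosome 4, 140775701 to 140775801 (35.8 points). At the chromosome 4 window KO males were 55.2 points above control males in the authors' deposited table, a larger value than their difference from KO females.

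Of the 10 windows with the largest lower values in KO males, 7 lay on distal chromosome 4. The first, at chromosome 4, 148490601 to 148490701, was -42.3 points in KO liver and -37.2 points between KO and control males in the authors' deposited table. The second and seventh, 140100301 to 140100401 (-41.9 points) and 140136401 to 140136501 (-36.6 points), were likewise listed against control males (-33.3 and -27.2 points) in the authors' deposited table, and in no other comparison. These 3 windows share one arrangement, with KO males below both KO females and control males. At 139197101 to 139197201 of the same chromosome the authors' deposited table has -41.0 points between the KO sexes, -18.4 points between KO and control males and 20.6 points between KO and control females. At 141198601 to 141198701 the KO sex difference was -35.9 points and the control sex difference 36.7 points in the authors' deposited table, the reverse direction. The remaining 2 on this chromosome, 134976801 to 134976901 (-39.5 points) and 137219801 to 137219901 (-35.7 points), were listed in no other column of the authors' deposited table.

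The other 3 of these 10 windows showed 3 different arrangements. At chromosome 6, 37734801 to 37734901, the sex difference was -40.7 points in KO and -52.1 points in control liver in the authors' deposited table, with neither KO group listed against its own control. This window has a sex difference of the same direction with and without hepatocyte STAT5. At chromosome 8, 94811001 to 94811101, the authors' deposited table has -38.6 points between the KO sexes and 20.4 points for KO females against control females. At chromosome 1, 90139201 to 90139301, the value of -35.7 points between the KO sexes stood alone in the authors' deposited table.

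The KO sex differences were spread over all 19 autosomes, but unevenly. Chromosome 4 held 98 of the 699 windows (14.0%), chromosome 7 held 52 and chromosome 18 held 51, while chromosome 17 held 17 and chromosome 19 held 12. Since the number of windows that the table lists for any reason also differs between chromosomes, the share of a chromosome's listed windows is the closer comparison. Chromosome 18 reached 31.3%, chromosome 4 had 29.3%, chromosome 7 had 25%, chromosome 13 had 22.3% and chromosome 8 had 21.5%, against 18% over the table. It was lowest on chromosome 17 (9.24%), chromosome 19 (10.8%) and chromosome 1 (12.5%). On each of the 19 chromosomes fewer windows were listed between the KO sexes than between the control sexes, most narrowly on chromosome 7, with 52 in KO and 54 in control liver. Control females numbered 5 and coverage is unknown, so the lengths of these lists were not compared by a test.

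The even balance of directions over the genome was made of chromosomes that leaned either way. Windows higher in KO males were the majority on 9 chromosomes and windows lower in KO males on 10. The lean toward KO males was widest on chromosome 2, where 30 of 41 windows were higher in KO males (73.2%), followed by chromosome 15 (18 of 27), chromosomes 13 and 14 (15 of 23 each), chromosome 7 (33 of 52) and chromosome 18 (32 of 51). Chromosome 1 leaned the other way, with 23 of 33 windows lower in KO males (30.3% higher), as did chromosome 3 with 19 of 29 and chromosome 10 with 23 of 37. Chromosome 11, which carries the floxed Stat5a-Stat5b locus, held 44 windows, 20 higher and 24 lower in KO males, and its share of the chromosome's listed windows was 16.7%.

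**Figure D2:**
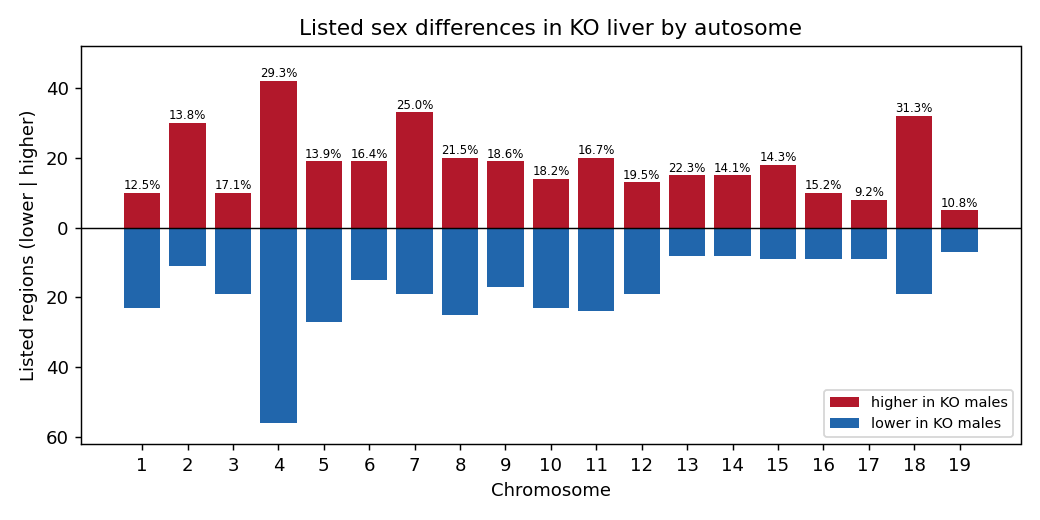
Listed windows per autosome, higher in KO males (red, upward) and lower in KO males (blue, downward); the percentage above each bar is the share of all windows the table lists on that chromosome. Chromosome 4 has the tallest bars in both directions, with 42 and 56 windows, and chromosome 18 the highest share, 31.3%.

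The other comparisons list the following shares of the table. The control sex difference lists 38.4% of the table's windows, 18.2% as higher and 20.3% as lower in control males. KO males against control males lists 55.4%, 37.8% as higher and 17.7% as lower in KO males, and KO females against control females lists 28.1%, 17.1% as higher and 11% as lower in KO females.

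On chromosome 4 the windows were concentrated toward the distal end. Of the chromosome's 98 windows, 83 lay between 128126301 and 155543301, where they made up 43.7% of 190 listed windows. On the rest of the chromosome they made up 10.3% of 145 listed windows. This stretch alone held 11.9% of all KO sex differences, and without it 316 of the other 616 windows (51.3%) were higher in KO males. Within the stretch both directions occurred, 36 windows higher and 47 lower in KO males, with a median size of 21.6 points and a median distance of 164.0 kb between neighbours. The directions were not finely mixed: they switched at 28 of the 82 steps from a window to the next. The stretch was covered by the control sex difference as well, at 57 windows (29 higher and 28 lower in control males), but only 13 windows were listed for both. Of these 13, 10 had opposite directions in KO and control liver and 3 the same direction.

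Read along the chromosome, distal chromosome 4 began with a pair of windows lower in KO males at 128126301 to 128126401 (-27.9 points) and 128129801 to 128129901 (-27.5 points) in the authors' deposited table. A run of 8 windows higher in KO males followed, from 128450101 (28.2 points) to 132926501 (22.8 points) in the authors' deposited table. After 12 windows of mixed direction, 3 stretches lower in KO males came close together. They held 5 windows from 136211901 to 137074301 (median -21.1 points, range -31.9 to -15.4), 11 windows from 137147001 to 138494601 (median -19.1 points, range -35.7 to -15.3) and 7 windows from 139139301 to 139775801 (median -21.7 points, range -41.0 to -17.6). Single windows or short runs higher in KO males separated them, such as the 20.3 points at 137115101 to 137115201 in the authors' deposited table. Within these 3 stretches 15 of 23 windows were listed in no other comparison, and the control sexes were listed at a single member, 138494501 to 138494601, with -16.1 points in control and -15.9 points in KO liver in the authors' deposited table. Near the end of the chromosome, 5 windows from 153446901 to 155029201 were higher in KO males, with a median of 21.3 points (range 16.7 to 31.1).

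Chromosome 18 showed a different layout, with KO males higher almost throughout its distal part. From 70680401 to 89782101, 25 windows were listed, 22 higher and 3 lower in KO males, and their median size was 25.3 points. On the rest of the chromosome 10 windows were higher and 16 lower in KO males. The 3 exceptions in the distal part were 71268401 to 71268501 (-32.9 points) and the touching windows 75348401 to 75348501 (-19.6 points) and 75348501 to 75348601 (-23.0 points) in the authors' deposited table. KO males were listed against control males at 23 of the 25 windows and KO females against control females at 8.

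In this part of chromosome 18 the sex difference of KO liver was the reverse of that of control liver wherever both were listed. That held at 10 windows, at each of which KO males were above KO females and control males below control females. Opposite directions were not particular to this part, since they were also found at 10 of the 13 such windows of distal chromosome 4. The authors' deposited table gives, besides the 2 windows above, 31.8 points in KO and -16.0 in control liver at 76521801 to 76521901, 27.9 and -26.2 points at 77496601 to 77496701, and 25.3 and -19.9 points at 81668801 to 81668901. Control sex differences were listed at 33 windows of the stretch, 11 higher and 22 lower in control males. The longest run of a single direction held 9 windows from 81668801 to 83323301, all higher in KO males, with a median of 21.5 points (range 15.6 to 35.6), and at 8 of them KO males were listed above control males. Of the 5 windows from 76084801 to 78034801 (median 31.8 points), 4 were listed against control males and 3 for females.

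**Figure D3:**
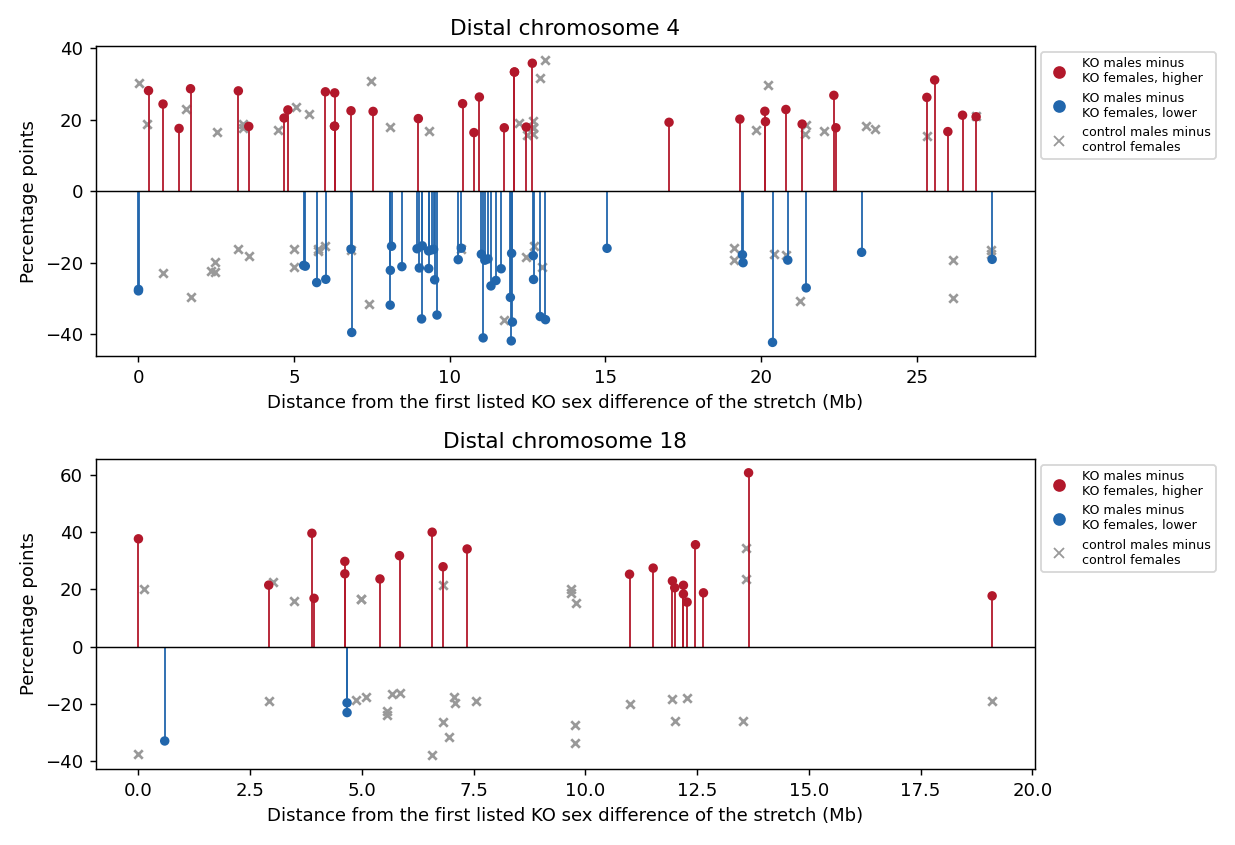
Differences in methylation (percentage points) against distance in Mb from the first listed KO sex difference of each stretch, on distal chromosome 4 (top) and distal chromosome 18 (bottom); stems are KO males minus KO females (red higher, blue lower) and grey crosses control males minus control females. Chromosome 4 alternates between runs of both directions over 83 windows, whereas 22 of 25 windows on chromosome 18 are higher in KO males and most of the control values there lie below 0.

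Joining consecutive windows of the same direction that lay within 1 Mb of each other gave 11 stretches of at least 5 windows on 6 chromosomes, with 68 windows in all. Chromosome 4 had 4 of these stretches and chromosome 18 had 3, and the other 4 were on chromosomes 5, 6, 8 and 12. On chromosome 5, 114816801 to 115329201, 6 windows were lower in KO males by a narrow range of sizes (-22.4 to -17.2 points), and at all 6 KO males were below control males too. Such a shared direction is partly tied by construction here and in the stretches below, since both comparisons use the same KO mice. On chromosome 8, 126834401 to 127242301, 5 windows were lower in KO males (median -22.6 points), and 3 of the 4 listed in control liver were higher in control males. On chromosome 12, 29203401 to 30642201, 5 windows were lower in KO males (median -22.4 points), and the 2 listed in control liver were lower in control males too. These stretches on chromosomes 8 and 12 thus differed in how KO and control liver compared.

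The stretch on chromosome 6, 141549001 to 143723701, held 5 windows higher in KO males, with a median of 26.1 points (range 18.03 to 52.6). KO females were listed at 4 of these 5, each time below control females, and KO males at 2, each time above control males. Control sex differences were listed at 8 windows inside its bounds, 7 of them lower in control males.

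A group on chromosome 14 spread too widely for the 1 Mb joining. Between 30 and 40 Mb, 8 of 8 windows were higher in KO males, with a median of 26.6 points (range 15.04 to 41.3). KO females were below control females at all 8 windows and KO males below control males at 5. At 35644901 to 35645001, for instance, the authors' deposited table gives 27.6 points between the KO sexes, -26.5 points in males and -46.1 points in females. Both sexes had lower methylation than their controls there, the females by the larger amount. On chromosome 2, between 150 and 160 Mb, 7 of 7 windows were higher in KO males (median 20.0 points, range 17.3 to 26.9), and at 5 of them KO males were listed above control males. No window of that group was listed for females or between the control sexes.

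KO sex differences were sparse along the genome. The median distance from a window to the next was 1.48 Mb in KO liver and 0.64 Mb in control liver. Such distances depend on the length of the list, which was 699 windows in KO and 1493 in control liver. The longest distance between members was 32.1 Mb on chromosome 14. Of 680 pairs of consecutive windows, 31 touched each other, 292 lay within 1 Mb and 139 (20.4%) were more than 5 Mb apart. Most windows stood alone: 592 of 699 had no touching window listed in any comparison. Of the 107 that had one, 61 touched another KO sex difference and 46 touched only windows listed in other comparisons. Touching windows formed 29 pairs and a single run of 3, at chromosome 14, 66378301 to 66378601, with a mean of -19.2 points.

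Close neighbours shared their direction. All 31 touching pairs in KO liver had the same direction, against 98.2% of 112 touching pairs in control liver, and in KO liver their values differed by a median of 2.10 points. The direction was shared by 6 of 8 further pairs up to 1 kb apart and 8 of 10 pairs up to 10 kb apart, numbers too small to rank. Farther out the share was 57.9% of 57 pairs at 10 to 100 kb, 62.9% of 186 pairs at 100 kb to 1 Mb, 60.2% of 249 pairs at 1 to 5 Mb and 51.1% of 139 pairs beyond 5 Mb. The control sex difference had 63.0% of 146 pairs at 10 to 100 kb, above the KO share, and 57.8% of 576 pairs at 100 kb to 1 Mb. It had 49.2% of 482 pairs at 1 to 5 Mb and 45.9% of 109 pairs beyond 5 Mb. Over all pairs within 1 Mb the shares were close, 66.8% in KO and 64.8% in control liver. The KO sex difference is split almost evenly between directions, so that no lean of the whole list enters its shares, whereas 68.1% of the windows listed for KO males against control males are higher. Pairs are not independent of each other and no test was made.

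The pairs with a shared direction at up to 5 Mb were unevenly distributed among chromosomes. Chromosome 14 had 14 of 17 (82.4%), chromosome 1 had 16 of 20 (80.0%), chromosome 18 had 36 of 46 (78.3%) and chromosome 4 had 59 of 92 (64.1%). On chromosomes 9 and 12 they were 14 of 28 and 12 of 24 (50.0% each), and on chromosome 15 they were 9 of 19 (47.4%).

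**Figure D4:**
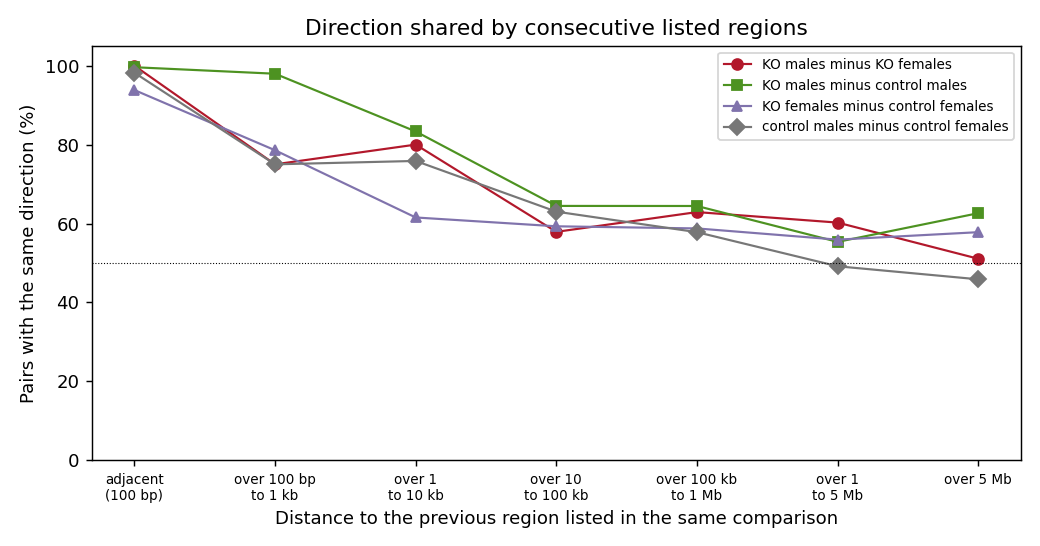
Percentage of consecutive listed windows that share their direction (vertical axis) by the distance between them (horizontal axis), for each comparison; the dotted line is at 50%. The KO sex difference (red circles) starts at 100% for touching windows. At 1 to 5 Mb it stands at 60.2% and the control sex difference (grey diamonds) at 49.2%. At 10 to 100 kb the order is reversed, with 57.9% in KO and 63.0% in control liver.

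The status of the 699 windows in the other 3 comparisons fell into 8 combinations. The largest held the 270 windows (38.6%) that were listed only between the KO sexes. The share of all windows of the table that a single comparison lists was not counted. The 38.6% therefore has no background beside it and does not mark these windows as unusual. A further 268 windows were listed in a single other comparison, 90 in 2 others and 71 in all 3 others. By the number of other listings, windows listed nowhere else had the lowest median size, 18.1 points, and 7.78% of them were at 25 points or more. Windows listed in 1 other comparison had a median of 20.6 points and 24.3% at 25 points or more. Those listed in 2 others had 18.5 points and 15.6%. Windows listed in all 4 comparisons had a median of 22.9 points and 42.3% at 25 points or more. Size thus did not rise steadily with the number of listings. The columns are tied by arithmetic, as given below, so these sizes are a description only.

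Of the 270 windows listed only between the KO sexes, 155 were higher and 115 lower in KO males (57.4% higher). At such a window no comparison with a control passed the authors' threshold in either sex, which does not show that the control sexes were alike there. The largest of those higher in KO males was 34.1 points at chromosome 18, 78034701 to 78034801, in the authors' deposited table. The next 4 were 30.2 points at chromosome 7, 32646601 to 32646701, 29.2 points at chromosome 5, 69514401 to 69514501, 28.6 points at chromosome 8, 97865101 to 97865201, and 28.2 points at chromosome 4, 128450101 to 128450201, by the authors' deposited table. The largest of those lower in KO males include 3 on distal chromosome 4, of which 2 are described above and the third was -34.7 points at 137714701 to 137714801 in the authors' deposited table. The others were the chromosome 1 window described above and -29.4 points at chromosome 8, 3380401 to 3380501, in the authors' deposited table. By chromosome, windows listed only here numbered 43 of 98 on chromosome 4 and 30 of 52 on chromosome 7, but 10 of 51 on chromosome 18.

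Comparison with control liver uses different mice, since the KO and the control sex difference have no library in common. Of the 699 KO sex differences, 183 (26.2%) appear in the control sex difference too, which lists 38.4% of the table, and 516 (73.8%) do not. A window outside the KO list had to be listed in another comparison to be in the table, so the share over the table is raised by construction. Windows listed in both had a median size of 19.7 points in KO liver. Among the 516 not listed in control liver, 13 had a control sex difference within 1 kb, in the same direction at 9 and in the opposite direction at 4.

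The 183 windows divided into 87 with the same direction in KO and control liver and 96 with opposite directions. Among the 87, KO males were lower at 58 and higher at 29, while among the 96 they were lower at 45 and higher at 51. The median size was 19.2 points in KO and 21.8 points in control liver where the direction was the same, and 20.7 points in KO and 21.01 points in control liver where it was opposite. Window by window, the KO difference was the larger at 29 and the control difference at 58 of the 87, and the KO difference was the larger at 41 and the control difference at 55 of the 96. The sets differed in their other columns. All 96 opposite windows were listed in at least 1 KO-against-control comparison and 55 in both, while 43 of the 87 same-direction windows were listed in neither. Opposite sex differences of over 15 points each mean, by arithmetic, that the KO changes of males and females differ by over 30 points, so the choice of windows favours listing there.

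Among windows with the same direction, the largest by the smaller of both values is the chromosome 6 window at 37734801 given above. At chromosome 12, 30525101 to 30525201, the sex difference was -30.8 points in KO and -38.2 points in control liver in the authors' deposited table. At chromosome 13, 54763001 to 54763101, it was -30.2 points in KO and -46.0 points in control liver in the same authors' deposited table. A second window on chromosome 12, 39560501 to 39560601, had -26.0 points in KO and -29.4 points in control liver in the authors' deposited table. These 4 windows were lower in males in both genotypes and listed in neither KO-against-control comparison. At chromosome 2, 93260101 to 93260201, males were higher in both, by 25.8 points in KO and 35.5 points in control liver in the authors' deposited table, and both KO sexes were higher than their controls, by 28.9 points in males and 38.6 points in females.

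Among windows with opposite directions, 4 of the 5 leading ones have been given above. The other was at chromosome 4, 141029401 to 141029501, with -35.1 points in KO and 31.6 points in control liver and -20.6 points between KO and control males in the authors' deposited table. By the sum given below, these values imply 46.1 points for KO females against control females, a comparison that does not list this window.

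Same and opposite directions were unevenly distributed over the chromosomes. On chromosome 12 all 11 windows listed for both sex differences kept their direction, and on chromosome 7 all 8 did. On chromosome 5 all 10 were opposite, and on chromosome 18, 12 of 14 were. Most were also opposite on chromosome 11 (16 of 25), chromosome 4 (12 of 15), chromosome 8 (8 of 11) and chromosome 9 (7 of 12). Most kept their direction on chromosome 2 (8 of 10), chromosomes 10 and 14 (7 of 9 on each) and chromosome 1 (6 of 8), and chromosome 6 was evenly divided (6 of 12). On chromosome 12 the 11 windows ranged from 5057601 to 82090901, and at the last of them males were higher by 23.3 points in KO and 19.9 points in control liver in the authors' deposited table. On chromosome 5 they ranged from 37210201 to 135036901, and the largest KO value was 25.7 points at 107627001 to 107627101, beside -27.9 points in control liver in the authors' deposited table. Without chromosomes 4, 6 and 18, 76 of 142 windows (53.5%) had the same direction.

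**Figure D5:**
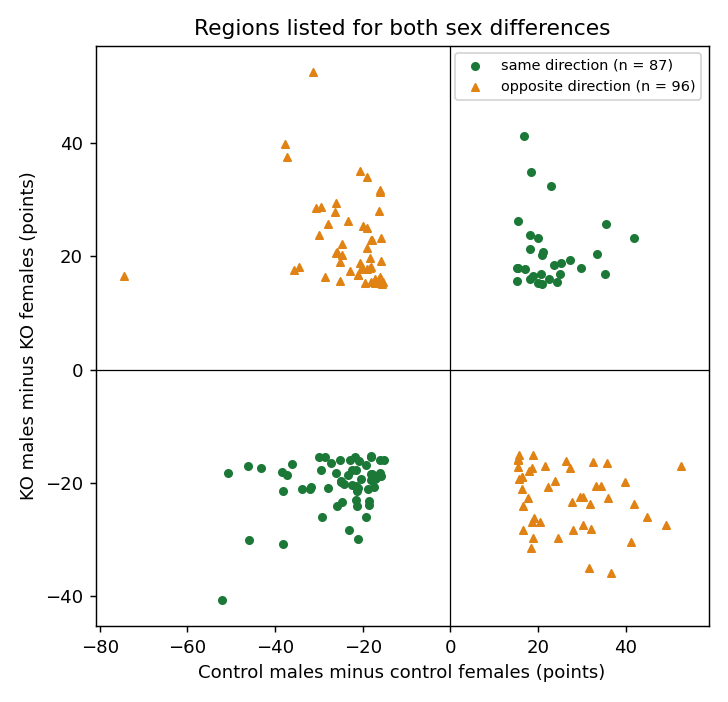
Difference KO males minus KO females (vertical axis, points) against control males minus control females (horizontal axis, points) at the 183 windows listed for both; green circles share a direction (87) and orange triangles do not (96). Points fill all 4 corners, the gap around 0 is set by the listing threshold, and the extreme KO value is 52.6 points in the corner of opposite directions.

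Comparison with each sex's own control shares libraries with the KO sex difference. KO males enter both the KO sex difference and the comparison with control males, and KO females likewise, so the directions of such pairs of columns are tied by construction. Of the 150 windows listed elsewhere only for KO males against control males, 66 were higher and 83 lower in both columns, and 1 differed. Where such directions are named above for windows and stretches, they are description and not a result. KO males were listed against control males at 277 of the 699 windows (39.6%), where the comparison lists 55.4% of the table, and KO females against control females at 201 (28.8%), where it lists 28.1%. The 150 windows listed in addition only for males had a median KO sex difference of 21.04 points and a median difference of KO males from control males of 22.5 points. The 75 windows listed in addition only for females had medians of 20.5 points between the KO sexes and 21.5 points between KO females and control females. The medians were of similar size in both sets, which does not mean that the values matched window by window.

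Windows listed in addition only for males were ranked within each direction by the smaller of both values. The first 2 higher in KO males lay on chromosomes 4 and 18, and the first 2 lower in KO males both lay on chromosome 4. Below them came, by the authors' deposited table, chromosome 15, 23888401 to 23888501 (32.6 points between the KO sexes and 30.4 points between KO and control males) and chromosome 18, 71268401 to 71268501 (-32.9 and -29.8 points). The same ranking of windows listed in addition only for females was led, among those higher in KO males, by chromosome 7, 119645801 to 119645901 (31.1 points between the KO sexes and -46.7 points for KO females against control females), and chromosome 6, 142059701 to 142059801 (30.3 and -35.1 points), in the authors' deposited table. KO females stood below both KO males and control females at these windows. Among those lower in KO males it was led by chromosome 10, 91732101 to 91732201 (-31.0 points between the KO sexes and 31.0 points for KO females against control females) in the authors' deposited table. Next in the authors' deposited table came -30.36 points between the KO sexes beside 30.36 points for females on chromosome 8, at 95607201 to 95607301. The third held -30.84 points between the KO sexes beside 29.98 points for females in the authors' deposited table, on chromosome 11 at 97934201 to 97934301.

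At the 71 windows listed in all 4 comparisons the columns can be set against each other, since the KO sex difference should equal the control sex difference plus the KO change of males minus that of females. It did so within 1 point at 46 of the 71 windows. At 90 windows listed in the KO sex difference and 2 of the other 3 columns, the same sum gives the unlisted difference. The implied value was within 15 points at 62 of the 90 (68.9%), with a median size of 13.2 points. At the other 28 it exceeded the authors' minimum difference although the window was not listed, with extremes of -31.0 and 46.1 points. Whether coverage, the q-value or the sum itself sets these cases was not tested.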

How the data were processed

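Per the labels' protocols, MspI fragments of 40 to 220 bp from 23 livers were bisulfite-treated and sequenced. The submitters' processing notes name mm9, Trim Galore 0.4.3, Bismark and methylKit, without roles. The authors deposited only differences in percent methylation per 100 bp window, in percentage points, and listed a window, per the file legend, where the absolute difference exceeded 15 points at a q-value under 0.05. The coverage minimum and the use of replicates in the test are not stated in those sources. Groups written WT in the table were taken to be the floxed controls. No window appears more than once.

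Everything else was computed from these differences with pandas 2.3.3 (Python 3.11.15) and drawn with matplotlib 3.10.9: counts, medians, start-to-start distances and stretches of a single direction. The functions were tested on simulated data. No p-value was computed, because the table holds no animal's value and windows are not replicates. Windows were named by rank: the 10 largest of each direction, 5 of each further set, and stretches of at least 5 windows. The members and these rules were chosen with earlier results of these data known. The bounds of the parts of chromosomes 4 and 18, the 10 Mb bins, the 3 leading windows per set listed in a single other comparison and the comparison of equal values were chosen after the values were seen. Coordinates are as deposited. Genes were not assigned, since the gene table at hand is of GRCm38.p6, which gave only the chromosome of Stat5a and Stat5b.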

Additional observations from a re-analysis of the deposited data

How the results depend on the processing

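A minimum difference of 20 points left 325 windows and 1 of 25 points left 130, against 699, while merging neighbours within 10 kb left 654. The share higher in KO males stayed between 47.7% and 51.5% in these settings and without chromosomes 4, 6 and 18, against 50.4%. Neighbours within 1 Mb shared their direction at 66.8% of pairs, which became 91.8% within 10 kb, 73.6% within 100 kb, 73.0% at a minimum of 25 points and 62.9% (107 of 170) without chromosomes 4, 6 and 18. The share not listed in control liver was 73.8% and became 66.9% at that minimum. The share with the same direction in both sex differences was 47.5% and became 27.9% (12 of 43 windows) at a minimum of 25 points in KO liver. The 11 stretches of at least 5 windows became 0 when windows were joined within 100 kb and 25 within 5 Mb. The cause of these shifts was not tested, apart from the fewer windows that a higher minimum leaves. No paired analysis was possible because the table carries no value of any animal, and for the same reason no animal could be left out. Depth is unknown, so its limits cannot be given.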

Other observations

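At 9 of the 201 windows listed both between the KO sexes and for KO females against control females, both values were equal in size and opposite in sign within 0.01 points. This would place KO males and control females at the same methylation level if each group had a single level across the columns. That need not hold, since the columns closed within 1 point at only 46 of 71 windows. All 9 were lower in KO males, with sizes from 15.9 to 31.0 points. In the authors' deposited table they include chromosome 11, 66208101 to 66208201, with -23.7 points between the KO sexes and 23.7 points for KO females against control females, while KO males against control males and the control sex difference were -41.9 and 41.9 points. A second window of that chromosome, 67050901 to 67051001, has -28.2, 28.2, -32.0 and 32.0 points for these comparisons by the authors' deposited table. Equal values that would, in the same way, place KO females and control males level were found at 3 of the 277 windows listed for both comparisons that need them.

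Among the 31 touching pairs of KO sex differences, 4 carried identical values, as at chromosome 4, 140203101 to 140203201 and 140203201 to 140203301, with 33.4 points each in the authors' deposited table. In the control sex difference, 5 of 112 touching pairs were identical.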
